A study of Homo sapiens with 4 samples.

Results

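The genes described here are 9 genes that published work on bone metastasis of breast cancer cells has linked to growth in bone: IL11, CXCR4, ADAMTS1, SPP1, FGF5, DUSP1, FST, PTHLH and JAG1. They were taken by gene name from the deposited expression table, and 8 of the 9 were found there among 20329 genes. SPP1, which encodes osteopontin, was not analysed here. Messenger RNA was measured by sequencing of polyadenylated RNA in 2 derivatives of MDA-MB-231, a triple-negative human breast cancer line: BM1, also called 1833, which the labels class as a bone metastasis derivative, and LM2, also called 4175, a lung metastasis derivative. All 4 cell populations carried a stably expressed, lentivirally delivered shRNA, which was non-specific in the BM1 control and the LM2 control and directed against hnRNPM, an RNA-binding splicing regulator, in the BM1 knockdown and the LM2 knockdown. Each group is 1 library, and each line is a single derivative grown in DMEM with serum, without bone cells. Several of the genes were first tied to bone metastasis in derivatives of this same parental line, so a higher level in BM1 is not independent evidence for their role.

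In bone metastasis, tumour cells take part in a cycle with the bone. They secrete factors such as parathyroid hormone-related protein (the product of PTHLH) and interleukin-11 that act on osteoblasts to raise RANKL, osteoclasts then resorb the matrix, and the resorption frees growth factors such as TGF-beta that act back on the tumour cells. CXCR4 is the receptor for the chemokine CXCL12, which marrow stroma secretes, and JAG1 is a membrane ligand that activates Notch receptors on bone cells.

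HNRNPM itself was at 171 then 28.4 FPKM with knockdown in BM1, against 132 then 20.3 in LM2. FPKM scales the fragment count of a gene to its length and to the library's depth. The depth, estimated from steps among low values of genes with 1 transcript, was about 22770000 to 41480000 fragments per library. Of those values 36.6% to 44.9% lay within 0.02 of a whole step, so it is an estimate. Mitochondrial genes took 8.8% to 9.31% of the FPKM sum in the controls and 11.8% to 12.8% in the knockdowns, and their part in the results was not tested. VIM (1160 to 2354 FPKM), CD44 (155 to 223) and EGFR (31.4 to 80.6) were high and the epithelial markers CDH1 and KRT14 were low. With the knockdown CDH1 went from 0.489 to 4.08 FPKM in BM1 and 0.17 to 2.3 in LM2, and KRT14 from 0.122 to 0.838 and 0.261 to 0.976. ERBB2 was present at 13.5 to 21.9 FPKM and GATA3 at 2.5 to 3.33 FPKM. Of the markers of other cells, CD14 lay between 1.47 and 7.09 FPKM, with the highest value in the LM2 knockdown. PDGFRB went from 1.37 to 3.24 FPKM in BM1 and 0.699 to 2.93 in LM2 with the knockdown. COL1A1 was at 1.94 FPKM without and 11.1 with the knockdown in BM1 (29.2 and 74.2 in LM2), so it was higher in LM2 and in each knockdown. The part of these markers in the results was not tested. ESR1, PGR, FOXA1, KRT5, PTPRC, CD3E, COL1A2, DCN, PECAM1 and CDH5 were not analysed here.

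The first question was how far the genes separate the 2 lines. Over both treatments, 7 of the 8 genes passed the filter (a mean of at least 1 FPKM), and all 7 averages were lower in LM2 than in BM1. CXCR4, ADAMTS1, IL11 and FST were called lower in LM2 (limma on log2(FPKM + 1), adjusted p under 0.05). JAG1, FGF5 and DUSP1 were not called. PTHLH, below the filter, went the other way, so the description as markers of BM1 holds for some of the genes only. Thus 4 of 7 were called lower beside 2.04% of all 13928 tested genes, and 0 were called higher beside 2.31% (0 also at an unadjusted p of 0.05). The genes were chosen with earlier results of these data known, so an excess over these shares is not independent evidence. CXCR4 passed the filter only through its BM1 levels, and PTHLH is not among the 7. The median of the 7 differences was -1.25, against -0.01 over all tested genes. In bulk RNA, fewer cells expressing a gene and less RNA per cell cannot be told apart.

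**Figure D1:**
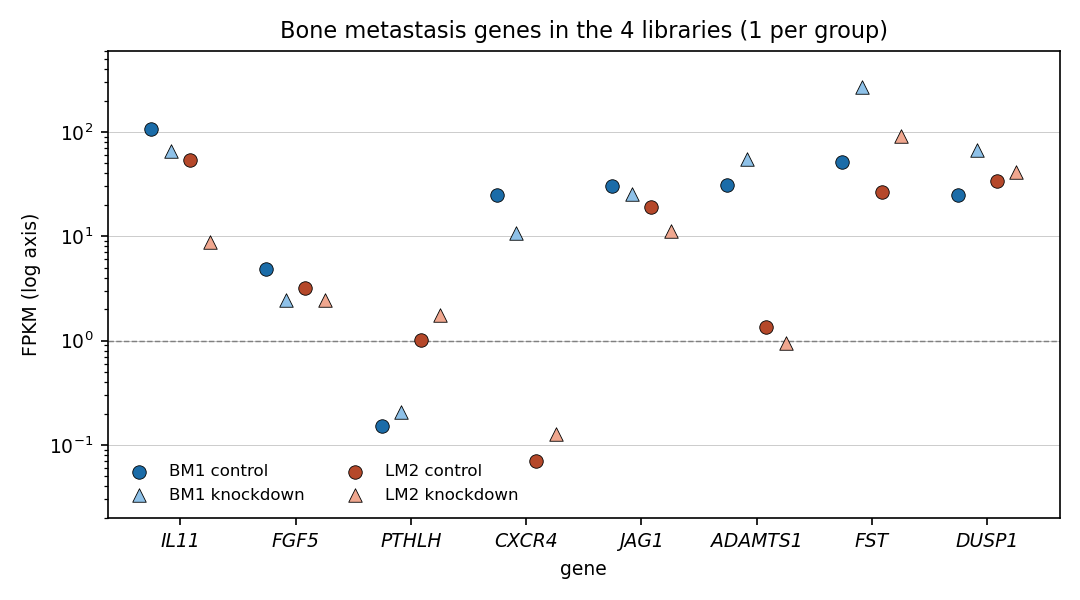
Level of each gene in FPKM (log axis) in the 4 libraries, with 1 point per library, circles for controls and triangles for knockdowns; the dashed line is 1 FPKM. CXCR4 and ADAMTS1 in LM2 lie far below both BM1 libraries, PTHLH lies above them, and FST rises from control to knockdown in each line.

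Among the secreted factors, IL11 was the most abundant in the controls. IL11 (ENSG00000095752.6, chromosome 19, 55875757 to 55881831, minus strand, GRCh37) encodes interleukin-11, an IL-6 family cytokine that promotes osteoclast formation. BM1 held 108 FPKM without and 65.6 FPKM with the knockdown, and LM2 held 54.1 and 8.76 FPKM. The LM2 knockdown stood far below the other 3 libraries, and the BM1 knockdown lay only a little above the LM2 control. LM2 was lower by -1.88 ± 0.39 over both treatments (log2, standard error, limma adjusted p 0.036). The difference was -0.98 between controls and -2.77 between knockdowns.

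FGF5 and PTHLH were low throughout. FGF5 (ENSG00000138675.16, chromosome 4, 81187753 to 81257834, plus strand) encodes a fibroblast growth factor. It was at 4.89 (BM1 control), 2.44 (BM1 knockdown), 3.21 (LM2 control) and 2.43 FPKM (LM2 knockdown), so the lines overlapped (difference -0.25 ± 0.26, adjusted p 0.63). PTHLH (ENSG00000087494.15, chromosome 12, 28111017 to 28125638, minus strand) was at 0.153 then 0.209 FPKM with knockdown in BM1, against 1.02 then 1.76 in LM2. Both LM2 libraries were above both BM1 libraries, by 0.81 on the log2(FPKM + 1) scale in controls and 1.19 in knockdowns. In the fit without the filter the difference was 1.001 ± 0.176 (adjusted p 0.213). In BM1 these PTHLH values stand for about 2.18 to 9.02 fragments in the control and 2.17 to 8.99 in the knockdown, for the shortest and longest annotated transcripts, so the BM1 level is imprecise.

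CXCR4, the only chemokine receptor among the genes, separated the lines at every comparison. CXCR4 (ENSG00000121966.6, chromosome 2, 136871919 to 136875735, minus strand) was at 24.7 FPKM in the BM1 control and 10.8 in the BM1 knockdown, and at 0.0698 and 0.127 FPKM in LM2. The LM2 values stand for about 4.3 to 5.49 fragments in the control and 5.16 to 6.58 in the knockdown, so CXCR4 was barely detected there. LM2 was lower by -3.99 ± 0.32 (limma adjusted p 0.000624), a value that understates the change because the LM2 levels lie far under the pseudocount of 1. With a pseudocount of 0.1 it was -6.39.

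ADAMTS1, a secreted metalloproteinase that cleaves proteoglycans such as versican, also separated the lines in both treatments. ADAMTS1 (ENSG00000154734.14, chromosome 21, 28208066 to 28217728, minus strand) was at 30.8 FPKM without and 55.3 with the knockdown in BM1 (1.34 and 0.944 in LM2). The BM1 level was 23-fold that of LM2 in controls and 58.6-fold in knockdowns. Over both treatments LM2 was lower by -4.31 ± 0.31 (adjusted p 0.000401). CXCR4 and ADAMTS1 were the 2 genes at least 2-fold lower in LM2 between controls, beside 5.26% of all tested genes, and none was 2-fold higher (6.98% of all).

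FST and JAG1 differed less. FST (ENSG00000134363.11, chromosome 5, 52776239 to 52782964, plus strand) encodes follistatin, a secreted protein that binds and blocks activins. It was at 51.6 (BM1 control), 269 (BM1 knockdown), 26.4 (LM2 control) and 91.1 FPKM (LM2 knockdown). Each LM2 library was below the BM1 library of the same treatment, yet the LM2 knockdown lay above the BM1 control (difference -1.25 ± 0.27, adjusted p 0.041). JAG1 (ENSG00000101384.11, chromosome 20, 10618332 to 10654755, minus strand) was at 30 then 25.6 FPKM with knockdown in BM1, against 19 then 11.2 in LM2. Both LM2 libraries were below both BM1 libraries, but the difference of -0.88 ± 0.26 was not called (adjusted p 0.0981). DUSP1 (ENSG00000120129.5, chromosome 5, 172195093 to 172198198, minus strand) encodes a nuclear phosphatase that switches off MAP kinases. It was at 24.7 FPKM without and 67.4 with the knockdown in BM1 (33.8 and 41.5 in LM2), and the lines overlapped (-0.13 ± 0.31, adjusted p 0.854).

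**Figure D2:**
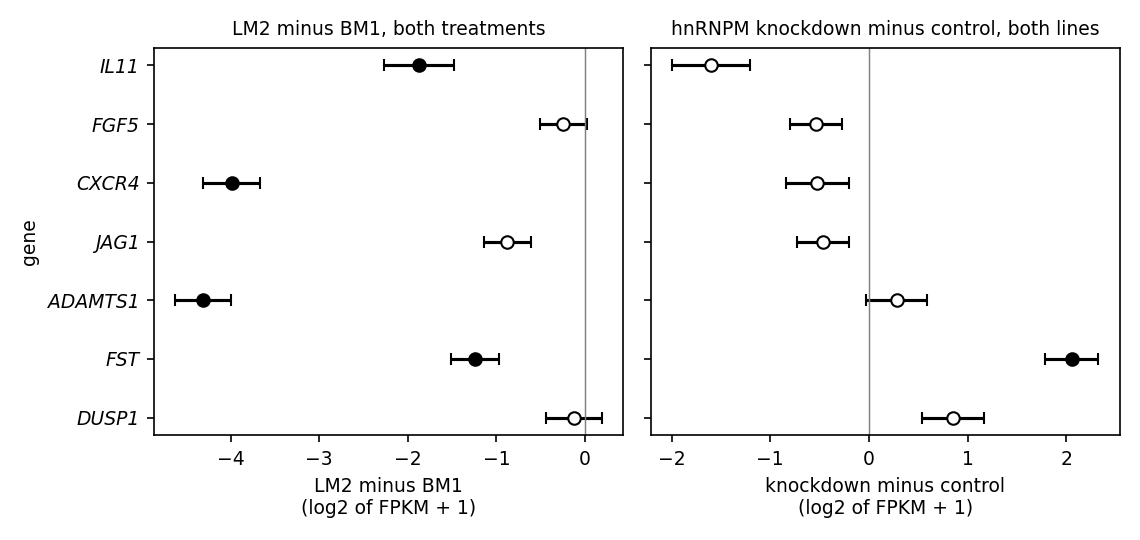
Difference between lines (left) and between treatments (right) for the 7 tested genes on the log2(FPKM + 1) scale, as the limma estimate with its standard error; filled points have an adjusted p under 0.05. On the left CXCR4 and ADAMTS1 lie near -4, and on the right FST is the filled point.

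The calls depend on how the spread is estimated. The fit leaves 1 residual degree of freedom per gene, which is the difference between the lines' knockdown changes, and limma moderates it with the spread over all genes. The calls of IL11 and FST between lines were lost with a pseudocount of 0.5 (adjusted p 0.0576 and 0.061), with one of 0.1 (0.146 and 0.129) and with quantile normalization (0.119 and 0.0954). Those of CXCR4 and ADAMTS1 were kept under these 3 settings, while without the filter none of the 4 was called (0.213 to 0.25). Without the term for treatment ADAMTS1 was called and CXCR4 had an adjusted p of 0.0941. With 3 libraries no spread is left unless the treatment term is dropped too, so fits that left out a library changed both choices, and their share in a lost call cannot be told apart. In these fits IL11 (adjusted p 0.0717 to 1) and FST (0.423 to 1) were never called. CXCR4 was not called without the BM1 control (0.078), nor ADAMTS1 without the BM1 knockdown (0.0648).

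None of the 8 genes overlaps another gene of the table. In GENCODE 29, FGF5 overlaps CFAP299, PTHLH overlaps AC008011.2, JAG1 overlaps MIR6870 and AL050403.2, and DUSP1 overlaps AC022217.3, and no source used here says whether counting used strand.

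The second question was what hnRNPM depletion did to these genes. FST rose and was the 1 gene of 7 called in limma, beside 2.71% of all tested genes called higher. None was called lower, beside 2.76% of all (IL11 was lower at an unadjusted p of 0.00298). IL11, FGF5, CXCR4 and JAG1 had lower averages in the knockdowns and ADAMTS1, FST and DUSP1 had higher ones. The median of the 7 differences was -0.47, against -0.01 over all tested genes. Within BM1, FST and DUSP1 were at least 2-fold higher (10.1% of all tested genes) and CXCR4 at least 2-fold lower (6.2%). Within LM2, FST was at least 2-fold higher (3.83%) and IL11 at least 2-fold lower (4.24%).

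The FST change was large in each line. Its level in the knockdown was 5.22 times that of the control in BM1 and 3.45 times in LM2, and both knockdown libraries were above both controls. Over both lines FST rose by 2.06 ± 0.27 on the log2 scale in limma (adjusted p 0.01). The call was lost under some settings, with an adjusted p of 0.0729 with a pseudocount of 0.1, 0.22 without the filter and 0.372 without the term for cell line. Fits of 3 libraries, which also lack the cell line term, did not call it either (0.226 to 0.799).

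IL11 was lower in each knockdown than in its control, and the sizes differed. The knockdown kept 60.8% of the control level in BM1 and 16.2% in LM2. The average difference was -1.60 ± 0.39 and missed the threshold (adjusted p 0.0515), while with a filter of 5 FPKM it was called (0.0372). That filter changes both the genes adjusted over and the moderated spread (standard error 0.383), and their shares were not tested. The change was -0.71 in BM1 and -2.50 in LM2, and the difference between these was not tested, because no degrees of freedom are left for it. The gap between the lines was 1.99-fold in controls and 7.48-fold in knockdowns.

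JAG1 and FGF5 were also lower in each knockdown than in its own control. JAG1 kept 85.3% of the control level in BM1 and 59.1% in LM2 (average -0.47 ± 0.26, adjusted p 0.313). FGF5 kept 50% in BM1 and 75.7% in LM2 (-0.53 ± 0.26, adjusted p 0.25). DUSP1 was 2.72 times its control in the BM1 knockdown and 1.23 times in the LM2 knockdown (0.85 ± 0.31, adjusted p 0.143). PTHLH differed by 0.07 in BM1 and 0.45 in LM2, at levels of at most 1.76 FPKM.

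CXCR4 and ADAMTS1, the genes 2-fold lower in LM2 in both treatments with the lowest adjusted p, had opposite signs of change in the lines. So did 30.9% of all tested genes. In BM1, CXCR4 in the knockdown was 43.8% of control (-1.12) and ADAMTS1 was 1.80 times control (0.83). In LM2 both stayed at levels of at most 1.34 FPKM, with changes of 0.08 and -0.27. The CXCR4 change in LM2 rests on about 4.3 to 5.49 fragments in the control and 5.16 to 6.58 in the knockdown, so its sign is uncertain. Over both lines neither was called (adjusted p 0.352 and 0.618). Between the knockdowns, IL11, CXCR4, JAG1, ADAMTS1 and FST were at least 2-fold lower in LM2, 5 of 7 beside 4.63% of all tested genes. None of the 7 was 2-fold higher (4.41% of all). PTHLH, which is below the filter and not among the 7, was more than 2-fold higher in LM2 (1.19).

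**Figure D3:**
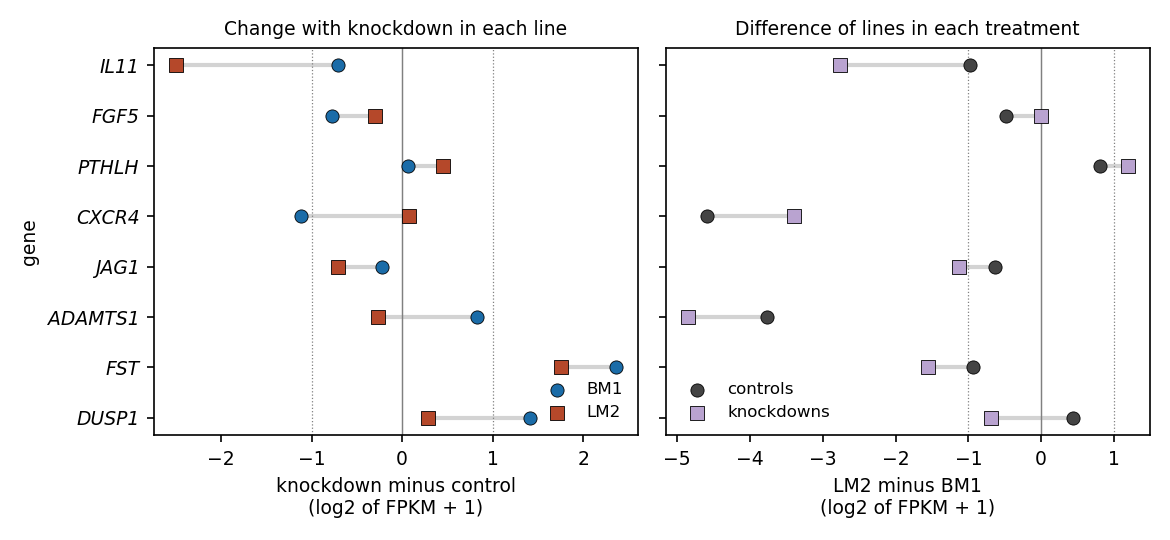
Knockdown minus control in each line (left) and LM2 minus BM1 in each treatment (right) on the log2(FPKM + 1) scale for the 8 genes; each point is the difference of 2 libraries, the grey bar joins the pair, and dotted lines mark a 2-fold difference. FST lies beyond 2-fold in both lines on the left, IL11 only in LM2, and CXCR4 and DUSP1 only in BM1.

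The letters just upstream of the starts are shown for FST, IL11, DUSP1 and CXCR4, the 4 genes with a difference of at least 2-fold between knockdown and control in at least 1 line. Windows of 250 bases came from RefSeq (GRCh38.p14, a later build than that of the expression table), where 8 of the 9 genes matched, with 11 starts in all. ADAMTS1 was not matched. The windows are chr5:53480379-53480628 (plus strand) for FST, chr19:55370464-55370713 (minus strand) for IL11, chr5:172771196-172771445 (minus strand) for DUSP1 and, for the most upstream of 3 CXCR4 starts, chr2:136118150-136118399 (minus strand). They read 5′ to 3′ up to the base before the start, and capitals mark the motifs found.
FST: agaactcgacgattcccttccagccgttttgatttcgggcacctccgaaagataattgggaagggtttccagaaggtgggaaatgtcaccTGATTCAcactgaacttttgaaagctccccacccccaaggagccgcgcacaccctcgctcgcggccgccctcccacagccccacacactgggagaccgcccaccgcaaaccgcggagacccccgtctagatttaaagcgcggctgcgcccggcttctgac
IL11: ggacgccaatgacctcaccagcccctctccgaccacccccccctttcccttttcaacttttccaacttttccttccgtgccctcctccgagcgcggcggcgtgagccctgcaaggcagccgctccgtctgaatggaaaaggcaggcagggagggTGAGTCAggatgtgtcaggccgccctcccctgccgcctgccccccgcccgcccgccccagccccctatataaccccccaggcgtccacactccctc
DUSP1: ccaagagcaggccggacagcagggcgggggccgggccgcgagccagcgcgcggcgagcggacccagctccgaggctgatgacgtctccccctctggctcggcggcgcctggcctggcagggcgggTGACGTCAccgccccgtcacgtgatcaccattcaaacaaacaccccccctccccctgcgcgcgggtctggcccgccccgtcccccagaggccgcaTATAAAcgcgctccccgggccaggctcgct
CXCR4: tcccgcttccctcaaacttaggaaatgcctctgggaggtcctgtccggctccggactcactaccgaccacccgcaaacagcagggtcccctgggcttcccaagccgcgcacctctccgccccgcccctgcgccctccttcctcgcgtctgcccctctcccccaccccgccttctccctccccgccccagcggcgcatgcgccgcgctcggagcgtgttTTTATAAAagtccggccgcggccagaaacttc

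The motifs searched were TGANTCA (AP-1), TGACGTCA (CRE, the cAMP response element) and TATAAA (the TATA box), each on both strands and with overlaps counted. An AP-1 match lay 160 to 154 bases before the FST start and 96 to 90 bases before the IL11 start. FST was called higher with the knockdown, while IL11 had a lower average (adjusted p 0.0515). DUSP1 held a CRE match 125 to 118 bases and a TATA match 30 to 25 bases before its start. In CXCR4 the 2 TATA matches, 1 on each strand, overlap, at 32 to 27 and 30 to 25 bases before the start. Of 35116 windows of this length, 6.57% held the AP-1 letters, 1.65% the CRE letters and 10.7% the TATA letters. FGF5 held TATA letters in 1 of its 2 windows, 215 to 208 bases before the start. In JAG1, PTHLH and SPP1 none of these letters were found in the window. A match is a stretch of letters and not a measured binding site.

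The other genes of each pathway were then compared, starting with the cytokine signal. Calls of these related genes, here and below, were not checked one by one under the alternative settings. Under those with all 4 libraries, 0 to 723 genes were called with the knockdown, against 762 in the main fit. Between lines 0 to 552 were called, against 606. Interleukin-11 binds IL11RA and signals through IL6ST (gp130), the subunit shared by the IL-6 family. IL6ST rose from 12.1 to 46 FPKM (BM1) and 31.7 to 79.2 FPKM (LM2) (1.57, limma adjusted p 0.0184). OSMR, LIFR and IL6R, the receptor subunits of oncostatin M, LIF and interleukin-6, rose by 1.29, 1.33 and 1.26 (adjusted p 0.0266, 0.0405 and 0.0479). IL6R passed the filter only through the knockdowns, with controls at 0.33 (BM1) and 0.755 FPKM (LM2). IL11RA was at 3.36 (BM1 control), 2.76 (BM1 knockdown), 4.25 (LM2 control) and 3.27 FPKM (LM2 knockdown) (adjusted p 0.569). Of 19 tested genes of this list 4 were called higher and 0 lower in the knockdowns, with a median of 0.24. Over all tested genes 2.71% were called higher and 2.76% lower, with a median of -0.01. These shares also stand beside the knockdown counts of the lists below. Between lines, SOCS1, a feedback inhibitor, and EBI3, a cytokine subunit, were called higher in LM2 (1.36 each, beside 2.31% of all tested genes). None was called lower (2.04% of all). SOCS1 and EBI3 passed the filter only through LM2, with BM1 at 0.444 to 0.734 FPKM. These values are less certain where genes overlap: IL6ST, LIFR, OSMR and SOCS1 share ground with opposite-strand genes, and IL11RA does so with GALT on its own strand.

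Partners of the other secreted factors moved as follows. FGFR1, a receptor of fibroblast growth factors, fell from 55.5 to 14.3 FPKM (BM1) and 60.7 to 28.7 FPKM (LM2) (-1.47, adjusted p 0.0268). It was the 1 gene called lower of 10 tested, beside 2.76% of all tested genes (0 higher, beside 2.71%). FGFR1 overlaps RPS20P22 on the same strand. Between lines FGF13 was called higher in LM2 (2.19) and SPRY2, a feedback inhibitor of receptor tyrosine kinases, lower (-1.38). FGF13 passed the filter only through LM2 (4.06 and 3.46 FPKM, against 0.0472 and 0.0329 in BM1). In the PTHrP and RANKL list, with 6 genes tested, TNFRSF11B, which encodes the RANKL decoy receptor osteoprotegerin, rose from 1.94 to 14.1 FPKM (BM1) and 5.08 to 10.4 FPKM (LM2) (1.63, adjusted p 0.0365). CALCR, the calcitonin receptor, rose by 3.25 (adjusted p 0.00285), and RAMP1, a subunit of calcitonin-family receptors, fell by 1.32 (0.0425). CALCR passed the filter only through the knockdowns (0.0433 to 7.51 FPKM in BM1 and 0.241 to 12.7 in LM2). CYP24A1, a vitamin D hydroxylase, was called higher in LM2 (1.49) and passed the filter only through LM2 (BM1 at 0.153 and 0.455 FPKM). GLI2, a transcriptional activator of PTHLH, was under the filter, at 0.643 then 0.136 FPKM with knockdown in BM1, against 0.9 then 0.16 in LM2. PTH1R was not analysed here.

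For the receptor and the Notch ligand, few related genes were called. Of 10 tested chemokine receptors and CXCR4 partners, CD74, which binds the cytokine MIF, was higher in LM2 (1.89, adjusted p 0.00765), and 0 were called with the knockdown (limma; the median was -0.14). CXCL12 and ACKR3 were not analysed here. Of 17 tested Notch genes, ADAM17, a protease that sheds membrane proteins, was the 1 called with the knockdown (1.14, adjusted p 0.0413), and it overlaps IAH1 on the opposite strand. NOTCH2 was the receptor with the highest level, at 34.4 FPKM without and 48 with the knockdown in BM1 (38.3 and 72.3 in LM2) (adjusted p 0.152). NOTCH1 was at 2.94 (BM1 control), 0.863 (BM1 knockdown), 5.71 (LM2 control) and 2.41 FPKM (LM2 knockdown) (adjusted p 0.0514). The Notch target HES1 was at 5.41 then 8.41 FPKM with knockdown in BM1, against 10.5 then 6.48 in LM2 (adjusted p 0.961). NOTCH3 and HEY1 were under the filter, at 0.214 to 1.29 FPKM and 0.25 to 0.747 FPKM.

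The matrix genes gave single calls. Of 6 tested osteopontin receptors and related genes, the integrin subunit ITGAV rose from 3.85 to 20 FPKM (BM1) and 15.2 to 30.9 FPKM (LM2) (1.55, adjusted p 0.0313, with an overlapping gene on the opposite strand). Its partners ITGB3 (1.34 to 2.62 FPKM) and ITGB5 (24.7 to 48.1 FPKM) were not called (adjusted p 0.815 and 0.177). Of 9 tested members of the ADAMTS family and substrates, ADAMTS12 was called lower in LM2 (-1.45), as ADAMTS1 was, and ADAMTS17 higher (1.51). ADAMTS17 passed the filter only through LM2, with BM1 at 0.685 and 0.287 FPKM. ADAMTS15 rose with the knockdown (1.21, adjusted p 0.034). VCAN was not analysed here.

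Genes of the activin pathway that follistatin blocks and the MAP kinase phosphatases were called in both directions with the knockdown. INHBA, which encodes the activin A subunit that follistatin binds, rose from 1.19 to 3.81 FPKM (BM1) and 0.87 to 4.14 FPKM (LM2) (1.30, adjusted p 0.0278). INHBB, the activin B subunit, was at 20.2 FPKM without and 18.1 with the knockdown in BM1 (2.3 and 3.57 in LM2) and was called lower in LM2 (-2.37, adjusted p 0.0027). TGFBR3 and BAMBI, which modulate activin and BMP signals, rose by 1.27 and 1.10 (adjusted p 0.0344 and 0.0423), and the type I receptor ACVR1 fell by 1.07 (0.0465). The type II receptors ACVR2A (1.12 to 2.58 FPKM) and ACVR2B (0.999 to 1.86 FPKM) were not called (adjusted p 0.348 and 0.962). This made 3 higher and 1 lower of 11 tested genes, beside 2.71% and 2.76% of all tested genes. Among 14 tested dual specificity phosphatases, DUSP4 and DUSP6, which act on ERK, fell by 1.07 and 1.13 (adjusted p 0.0462 and 0.0423), while DUSP10, which acts on JNK and p38, rose by 1.27 (0.0283). DUSP6 was also lower in LM2 (-1.65, adjusted p 0.0117). It overlaps a gene on the opposite strand.

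**Figure D4:**
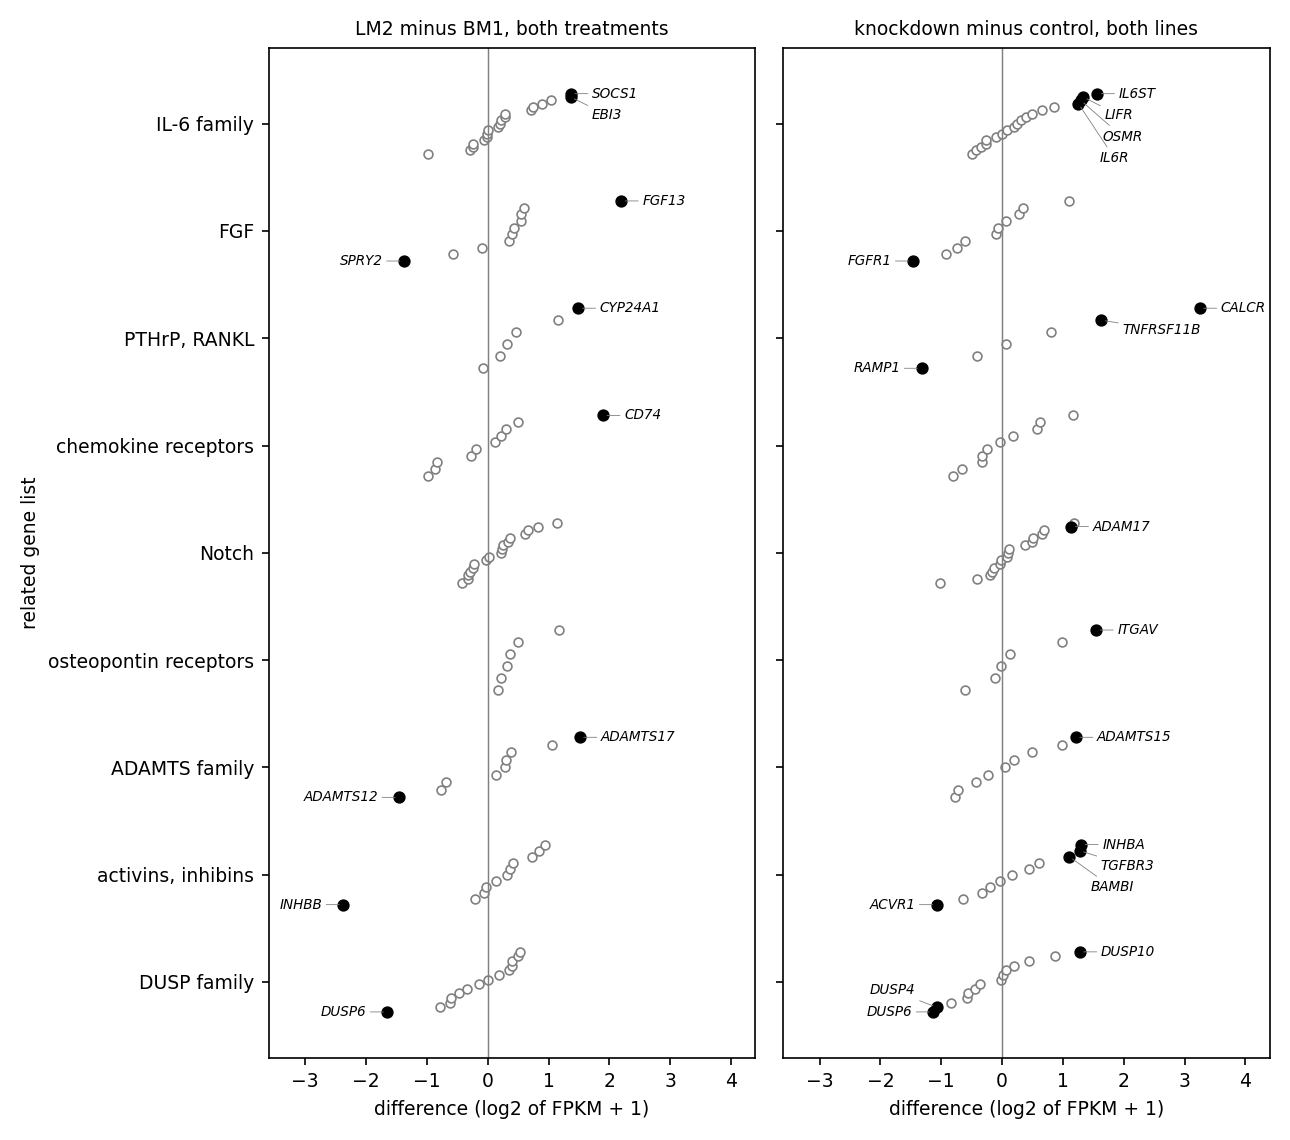
Differences between lines (left) and between treatments (right) for the tested genes of 9 related lists on the log2(FPKM + 1) scale; each point is a gene and filled, named points have a limma adjusted p under 0.05. The receptors IL6ST, LIFR, OSMR and IL6R lie to the right with the knockdown, and INHBB is the leftmost point between lines.

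Other genes linked to bone metastasis or osteolysis did not all follow BM1. Of 24 tested, 3 were called lower in LM2 (MMP1, CCL2 and EDN1) and 4 higher (SPARC, CADM1, IL1B and LOX), with a median of 0.05. With the knockdown 2 were called higher (TNFRSF11B and ICAM1) and 2 lower (MMP1 and SRC), beside 2.71% and 2.76% of all tested genes. MMP1 went from 355 to 11.9 FPKM in BM1 and 33.3 to 2.34 in LM2 (-4.08, limma adjusted p 0.00285). ICAM1 rose by 1.24 and SRC changed by -1.26. CCL2 passed the filter only through BM1 (86.3 and 92 FPKM, against 0.127 and 0.756 in LM2). CADM1 passed it only through LM2 (18.8 and 12.1 FPKM, against 0.0369 and 0.0153 in BM1). LOX overlaps SRFBP1 on the opposite strand, and ICAM1 also overlaps opposite-strand genes. Of 17 tested lung metastasis genes, 7 were called higher in LM2 and 1, MMP1, lower, while the 7 tested bone genes described above gave 0 and 4. Over all tested genes the shares were 2.31% higher and 2.04% lower. This difference between the lung and bone genes was not tested, and both were chosen with earlier results of these data known. Of the tested genes, SPARC and MMP1 are in both the lung list and the list of other bone metastasis genes. PTGS2, under the filter, is in both too. MMP2, among the 7 lung genes called higher, passed the filter only through LM2 (BM1 at 0.0171 and 0.0469 FPKM). Of 17 TGF-beta induced genes and pathway members, 3 were called higher in LM2. With the knockdown SKIL and NEDD9 rose (1.87 and 1.54) and TGFBR2, a receptor of the pathway that feeds the bone cycle, fell by 2.94.

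The genes whose 4 values were most like those of a single gene described above were found by Euclidean distance of centred log2(FPKM + 1) values, a description over 4 libraries only. For FST they were AQP1, ZNF114 and ANKRD1 (distances 0.385 to 0.437), of which ZNF114 overlaps other genes on both strands. ANKRD1 was at 165 (BM1 control), 761 (BM1 knockdown), 56.2 (LM2 control) and 240 FPKM (LM2 knockdown). For CXCR4 they were SPANXA1, SPANXA2 and SSX1 (0.294 to 0.693), of which the first 2 are near-identical copies whose reads may be shared. For ADAMTS1 they were AGR2, MAGEA3 and COX7B2, at larger distances of 1.08 to 1.30. AGR2 was at 11.3 then 39.6 FPKM with knockdown in BM1, against 0.518 then 1.14 in LM2. SH3BP1 came closest to IL11 (0.284), PCED1A to JAG1 (0.0405) and EIF5B to DUSP1 (0.0697), and each of these 3 overlaps another gene.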

How the data were processed

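Polyadenylated RNA of 4 cell populations was sequenced as stranded paired-end libraries, per the labels' protocols. The authors deposited 1 table of FPKM values with 1 column per library. The submitters' processing notes name STAR 2.5.3a, Cuffdiff 2.2.1 and GRCh37, and neither these notes nor the labels give the annotation or say whether counting used strand. The coordinates fit this: of 19671 gene IDs matched to GENCODE 29 (GRCh38), 183 lay at the same position. The 40 entries whose gene ID repeats, which carry 3 gene names, were left out, which left 20329 genes.

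Genes with a mean of at least 1 FPKM (13928) were analysed as log2(FPKM + 1), which understates changes of low genes, in 1 limma 3.58.1 fit (R 4.3.3) with terms for cell line and treatment, and p-values were two-sided and Benjamini-Hochberg adjusted over all tested genes at 0.05. Libraries of 1 line are paired by their origin (Pearson r of their deviations 0.545 across genes). With 1 library per group no comparison of 2 libraries has a test, and a 2-fold rule was used. P-values measure only the spread among these libraries. The fit was also run on simulated data with equal, independent noise for every gene. That setting differs from these data, where the residual is the difference between the lines' knockdown changes. It therefore does not show how far the calls here hold. Depth was inferred from steps in FPKM times transcript length in 1623 genes with 1 transcript; 36.6% to 44.9% of the low values lay within 0.02 of a whole step.

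The genes and the lists were chosen with earlier results of these data known. Named genes are the 9 genes, fixed ligand and receptor partners, up to 4 called genes per list and contrast by size, and the 3 protein-coding genes nearest in profile. Alternatives were pseudocounts of 0.1 and 0.5, no filter or 5 FPKM, size factors, quantile normalization, no replicate block, leaving out each library together with that block, and a 1.5-fold rule. No group had replicates, and the block is the other term of the fit. It is treatment for the difference between lines and cell line for the knockdown difference.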

Additional observations from a re-analysis of the deposited data

Results flagged for a closer look

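The change with the knockdown had opposite signs in BM1 and LM2 for several genes, and none of these differences was tested, since each rests on 4 single libraries. The LM2 change minus the BM1 change was 1.2 for CXCR4 and -1.09 for ADAMTS1 (log2), with LM2 levels of at most 1.34 FPKM. Opposite signs between lines were also seen for 30.9% of all tested genes. Among partner genes the same quantity was 0.818 for ITGB3, 0.618 for INHBB, -0.307 for ACVR2B, 0.938 for NOTCH3 and -1.18 for HES1. The difference between the lines had opposite signs in controls and knockdowns for DUSP1, where it moved by -1.12 from controls to knockdowns. It did so for 33.5% of all tested genes. ITGB3 (0.818), ACVR2A (-0.632), INHBA (0.323), NOTCH3 (0.938), HES1 (-1.18) and HEY1 (0.387) also changed sign in this way.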

How the results depend on the processing

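With 1 library per group, the calls rest on 1 residual degree of freedom per gene. Between lines, 606 genes and 4 of the 7 tested genes described above were called. These counts were 216 and 2 with a pseudocount of 0.1, 231 and 2 with quantile normalization and 11 and 1 with no replicate block (no term for treatment). Without the filter in limma they were 0 and 0 (3634 and 6 at an unadjusted p under 0.05). The fit without the filter also holds PTHLH, so these 6 are not of the 7 alone. PTHLH is among the 6 and was higher in LM2 (1.001 ± 0.176). A pseudocount of 0.5 gave 2 of the 7. Leaving out 1 library, always together with the replicate block since 3 libraries cannot hold both terms and a spread, gave 6 to 28 genes and 1 to 2 of the 7. For the knockdown, 762 genes and 1 of the 7 were called. These were 27 and 0 with a pseudocount of 0.1 (2 of the 7 unadjusted), 94 genes with quantile normalization, 0 and 0 with no replicate block in limma (1548 and 1 unadjusted), 0 and 0 without the filter (3735 and 1), and 0 and 0 on leaving out 1 library and the block (860 to 1943 and 0 to 2). A filter of 5 FPKM gave 2 of the 7, as IL11 joined FST. The cause was not tested. By the 2-fold rule 1705, 1259, 2264 and 1123 genes passed between controls, between knockdowns, within BM1 and within LM2. With a 1.5-fold rule these were 4738, 3865, 5262 and 3418, with 5 of the 7 between controls and 6 within BM1. With a pseudocount of 0.1, 2636, 2013 and 1824 passed between controls, between knockdowns and within LM2, and with a filter of 5 FPKM 793 and 722 between knockdowns and within LM2. Of 96 values of the 7 genes from all 4 libraries, 0 reversed. With all 4 libraries, a changed filter or a dropped block leaves each value as it was. Those settings could therefore not reverse a value, and only the pseudocounts, size factors and quantile normalization could. With 1 library and the block left out, a value also holds part of the other contrast, so a reversal cannot be put down to the library. The values that reversed were the line differences of FGF5 (-0.63 to 0.14, reversed without the BM1 control) and DUSP1 (-0.83 to 0.58, reversed at 0.58 without the BM1 knockdown and 0.02 without the LM2 control). The knockdown differences that reversed were those of CXCR4 (-2.82 to 1.77, also 1.17 without the LM2 knockdown), ADAMTS1 (-2.15 to 2.71, also -1.60 without the LM2 control) and JAG1 (-1.03 to 0.10, reversed without the LM2 knockdown).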
